A study of Xenopus laevis with 12 samples.

Results

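RNA recovered by immunoprecipitation from oocytes of the frog Xenopus laevis was compared between libraries titled hnRNPab and libraries titled IgG. These make up 8 of the 12 libraries of the study. The 8 are those titled hnRNPab 1 to 4 and IgG 1 to 4, and the other 4 carry the title Staufen. The starting material for every library was lysate of pooled stage II and III oocytes, fractionated by size exclusion chromatography, from which the fractions richest in L-bodies were taken. No genotype, treatment or frog is given by the labels, which do not say whether replicates came from separate animals. The p-values below therefore rest on how far these libraries differ from each other, and that spread may be technical.

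L-bodies are large RNA-protein condensates of the growing oocyte that hold mRNAs on their way to the vegetal cortex. hnRNPab, also called 40LoVe in Xenopus, is an RNA-binding protein that binds localization elements of vegetal mRNAs, and Staufen is a double-stranded RNA-binding protein that joins transport particles in the cytoplasm. In RNA immunoprecipitation an antibody pulls down a protein with the RNA attached to it, and non-immune IgG gives the background of RNA that sticks to beads and antibody. By its titles, the comparison of hnRNPab with IgG was thus laid out to list RNAs recovered with hnRNPab above background.

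The libraries are called by their labels throughout, because the labels and the tables of enriched genes that the authors deposited do not match. For the 448 tested genes in both of the authors' deposited tables, the Staufen fold change minus the hnRNPab fold change followed hnRNPab-labelled minus IgG-labelled libraries (r = 0.99965 across genes, median gap 0.0140 on the log2 scale). Genes are not independent replicates, and r here only describes how close the values lie. Over the 1930 tested genes of the authors' deposited hnRNPab table, its fold changes had r = -0.44 with hnRNPab-labelled minus IgG-labelled libraries (median gap 1.97). The value was -0.3465 with Staufen-labelled minus IgG-labelled libraries (median gap 1.51). With the reverse, IgG-labelled minus Staufen-labelled libraries, it was 0.3465 (median gap 0.901), the smallest gap of these contrasts. Over the 2426 tested genes of their Staufen table, its fold changes had r = 0.575 with hnRNPab-labelled minus IgG-labelled libraries (median gap 0.467), 0.5679 with hnRNPab-labelled minus Staufen-labelled libraries (median gap 0.489) and 0.152 with Staufen-labelled minus IgG-labelled libraries (median gap 1.26). Whether the labels or the tables name the antibody that was used cannot be told from these values. Fold changes below are therefore differences between labels and need not be enrichment over background.

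Gene counts in the 8 libraries ran from 17433273 to 22103431. The limit that a count of 0 sets is 3 counts of a library, which is 0.136 to 0.172 counts per 1000000 gene counts (CPM), and covers counting error only. The CPM of genes below are scaled by TMM. CPM are shares of a library, so the amount of RNA that each antibody recovered cannot be told from them. Reads outside annotated exons made up 11.99% ± 0.872 of singly aligned reads in hnRNPab-labelled libraries and 18.4% ± 1.16 in IgG-labelled libraries (SD, n = 4 each). This share was lower in the hnRNPab-labelled library of all 4 replicate numbers, by 4.31 to 7.79 percentage points (exact sign-flip test, two-sided, p = 0.13, the smallest that 4 pairs allow). At least 1 count was found for 26856 to 27242 genes in hnRNPab-labelled and 27962 to 28830 genes in IgG-labelled libraries. The part of the share outside exons in the gene differences below was not tested.

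Replicate numbers tied the libraries together. After removing group means, libraries with the same number had correlations of 0.817 to 0.852 across genes, and libraries with different numbers -0.487 to -0.112. Removing group means makes the deviations within a label cancel. Positive values for the same number thus force negative ones on average for different numbers, which add no evidence of their own. Replicate number held a median 51.6% of a gene's variance over the 8 libraries, label 33.4% and the remainder 4.28%. Per-library values are given below in the order of replicate numbers 1 to 4, and each fold change comes from a fit with the replicate number as a block.

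Most tested genes differed between the labels. Of 20803 genes tested with edgeR's quasi-likelihood test, 6505 were higher in hnRNPab-labelled than in IgG-labelled libraries (31.3%) and 6937 were lower (33.3%), at an adjusted p below 0.05. Of these, 3577 higher and 3410 lower genes differed by less than 1.5-fold. Of the called genes, 6122 of the higher and 6494 of the lower ones had the same sign in 4 of 4 replicate numbers, which the call itself favours. For 6484 genes (31.2%) the 4 hnRNPab-labelled values did not overlap the 4 IgG-labelled values in CPM.

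In the test against a change of more than 2-fold, 794 genes were higher (3.82%) and 927 lower (4.46%). The median log2 difference of the 794 was 1.51, 1.42, 1.59 and 1.62 in replicate numbers 1 to 4, and that of the 927 was -1.38, -1.45, -1.48 and -1.61. These genes were chosen on the same pairs, so the medians only describe them. Without the block, which leaves the spread between replicate numbers in the error, 3388 genes were higher and 3617 lower, and 422 and 259 passed 2-fold. Over all tested genes the median log2 fold change was -0.02, with quartiles of -0.40 and 0.33.

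**Figure D1:**
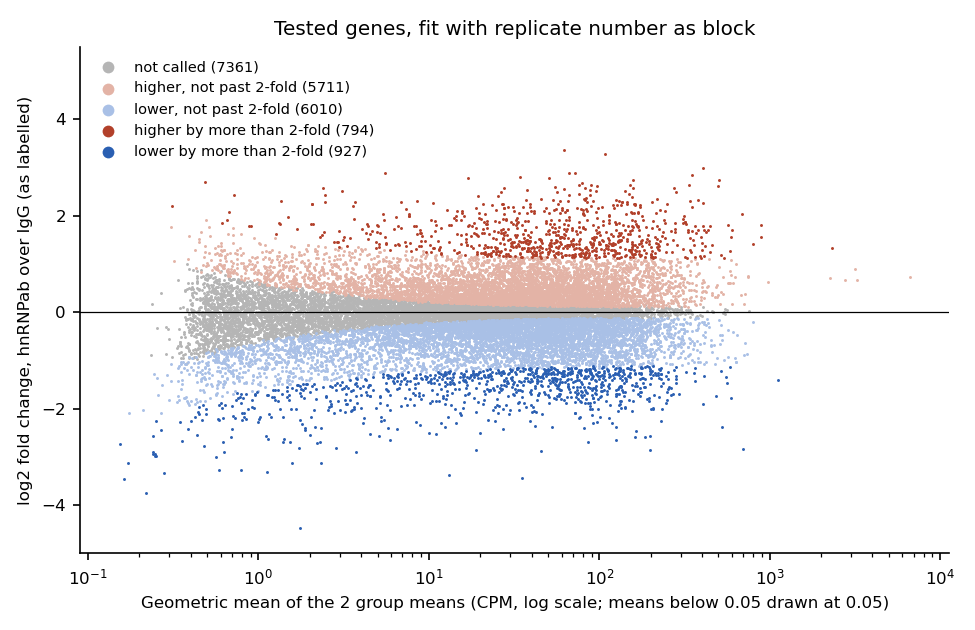
Log2 fold change of hnRNPab-labelled over IgG-labelled libraries (vertical axis) against the geometric mean of both group means in CPM (log axis) for the 20803 tested genes, coloured by call. Dark points mark the 794 genes higher and 927 lower by more than 2-fold, and calls reach closer to 0 as the level rises.

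Calls became more frequent with level. Of the fifth of genes with the lowest mean CPM, 0.225 to 3.40 CPM, 34.4% were called in either direction. In the following bins of equal size the share was 56.4%, 68.6%, 78% and 85.7%, the last covering genes of 73.4 CPM and above. The size of the differences did not follow the same course, with median absolute log2 fold changes of 0.40, 0.30, 0.30, 0.37 and 0.49.

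Which genes have a name matters for every count that follows. Names come only from the authors' deposited tables of enriched genes, so each named gene had been selected by the authors on these samples, and the direction of a named gene in this comparison goes with the table that lists it. Of the 1978 tested genes in the authors' deposited Staufen table alone, 1922 were higher (97.2%) and 0 lower in hnRNPab-labelled libraries, and of the 1482 in their hnRNPab table alone 0 were higher and 1442 lower (97.3%), by edgeR's adjusted p. The 448 genes in both tables split into 148 higher (33%), 137 lower (30.6%) and the others not called. Counts in gene lists are therefore a description of what these libraries held, not independent evidence of a direction. A gene called higher or lower below passed edgeR's test at that threshold over all tested genes, and a list is read beside the shares of named genes in the next paragraph.

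Among the 3904 named genes 2066 were higher (52.9%) and 1579 lower (40.4%), and 712 (18.2%) and 517 (13.2%) passed the test against 2-fold. The 16899 genes with no name here leaned the other way. Of them 4439 were higher (26.3%) and 5358 lower (31.7%), and past 2-fold the counts were 82 (0.485%) and 410 (2.43%). The 410 lower genes had a median of 9.57 CPM in hnRNPab-labelled and 26.1 CPM in IgG-labelled libraries, and 123 of them averaged below 5 CPM over the 8 libraries. The 82 higher genes had medians of 38.3 CPM in hnRNPab-labelled and 14.8 CPM in IgG-labelled libraries.

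The largest rises and falls were taken among named genes with a mean of at least 5 CPM and one sign in 4 of 4 replicate numbers. Placeholder names, such as LOC numbers, were left out, and 1141 of the 3904 named tested genes carry one. Over all named genes, log2 fold changes ran from -4.47 to 3.37. The 15 largest rises by this rule included regulators of DNA replication, cohesion and cytokinesis and several signalling enzymes. In each of them every library of one label stood apart from every library of the other. Choosing the largest differences favours this, here and for list members named by size below, and 31.2% of all tested genes do not overlap. Roles of genes are given here as known mainly from vertebrates and yeast. The largest of these rises was that of arfgap1.S (gene14627), a GTPase-activating protein for the Arf GTPases of the Golgi. It had 434, 262, 326 and 318 CPM in hnRNPab-labelled libraries, against 45.0, 33.3, 27.3 and 31.9 CPM in IgG-labelled libraries. The lowest hnRNPab-labelled library was well above the highest IgG-labelled one, and the difference was 9.73-fold (log2 3.28, SE 0.0691, edgeR adjusted p = 1.82e-28). Its log2 differences by replicate number were 3.27, 2.97, 3.57 and 3.31. Here and below, SE and edgeR p come from a fit that estimates the spread with help from other genes. They do not rest on a gene's own 4 pairs alone.

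The second was cdc6.L (gene9532), which loads the replicative helicase onto origins of replication. Its level was 1611, 877, 1025 and 1079.9 CPM in hnRNPab-labelled libraries and 204, 127, 120.2 and 129 CPM in IgG-labelled libraries. Library 1 was the highest of its label on both sides, and the ratio varied little, with log2 differences by number of 2.98, 2.78, 3.09 and 3.06 and a fitted change of 7.90-fold (SE 0.0601 on the log2 scale, edgeR adjusted p = 5.21e-29). Its homeolog cdc6.S, the copy from the other subgenome of this allotetraploid frog, was higher by 4.94-fold.

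Another gene of chromosome duplication was rad21.L (gene3973), the cohesin subunit that closes the ring around sister chromatids and is cut at anaphase. It had 1766, 1174, 1269.9 and 1015 CPM in hnRNPab-labelled libraries, against 245, 191, 178 and 156 CPM in IgG-labelled libraries. The groups were far apart, and the change was 6.74-fold (log2 SE 0.0529, edgeR adjusted p = 2.19e-29). For btg3.S, an antiproliferative protein of the BTG/Tob family, the values were 1415, 939, 684 and 698 CPM in hnRNPab-labelled and 188, 137, 99.7 and 93.0 CPM in IgG-labelled libraries. The highest value on each side again came from replicate number 1, without bringing the groups together (7.18-fold, edgeR adjusted p = 2.19e-29).

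The phosphatase cdc25a.S, which activates cyclin-dependent kinases, had 264, 147, 207 and 179.7 CPM in hnRNPab-labelled and 40.4, 25.8, 32.1 and 26.2 CPM in IgG-labelled libraries (6.39-fold). The augmin subunit haus3.L, needed for microtubule branching in the spindle, had 197, 134, 192 and 200.3 CPM in hnRNPab-labelled and 27.8, 23.0, 21.3 and 25.0 CPM in IgG-labelled libraries (7.39-fold). Both homeologs of racgap1, a GTPase-activating protein of the central spindle and cytokinesis, were among the 15, at 6.68-fold for racgap1.L and 6.22-fold for racgap1.S.

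The remaining rises had other roles. dusp1.L, a phosphatase that switches off MAP kinases, had the fewest counts of the 15, with 11.7, 6.52, 25.7 and 16.5 CPM in hnRNPab-labelled and 1.76, 0.679, 3.50 and 2.20 CPM in IgG-labelled libraries (7.44-fold). acp2.S, a lysosomal acid phosphatase, was higher by 7.43-fold, gnai1.S, an inhibitory G protein alpha subunit, by 6.86-fold, and ccdc50.S by 6.86-fold. xrn2.L, the nuclear exonuclease that degrades RNA from its 5′ end, was higher by 6.23-fold. mat2a.S, which makes the methyl donor S-adenosylmethionine, was higher by 6.21-fold, and chst12.L, a chondroitin sulfotransferase, by 6.07-fold. All 15 were listed in the authors' deposited Staufen table alone, and the largest of their edgeR adjusted p-values was 1.84e-20, that of dusp1.L.

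By the same rule the largest falls included several zinc finger and other nuclear regulators and proteins of vesicle traffic. For fam208b.S (gene3212) the libraries held 9.16, 19.3, 16.9 and 20.9 CPM with the hnRNPab label and 56.4, 136, 123 and 178 CPM with the IgG label. Library 1 was the lowest on each side, and the groups stayed apart (log2 -2.87, SE 0.0711, edgeR adjusted p = 6.11e-27). brf1.L (gene13586), a subunit of the TFIIIB factor that recruits RNA polymerase III, had 61.6, 77.6, 79.2 and 75.7 CPM in hnRNPab-labelled libraries, against 423, 595, 518 and 598 CPM in IgG-labelled libraries. Every IgG-labelled value was several times the highest hnRNPab-labelled one (log2 -2.85, SE 0.0559, edgeR adjusted p = 3.01e-29).

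Vesicle traffic was represented by rab8a.S, a GTPase of transport to the plasma membrane, with 25.5, 34.4, 41.5 and 34.2 CPM in hnRNPab-labelled and 153, 229.7, 240.2 and 254 CPM in IgG-labelled libraries (log2 -2.69). dnajc5.S, the cysteine string protein, a co-chaperone on secretory vesicles, had 72.7, 71.6, 77.8 and 79.5 CPM in hnRNPab-labelled and 394, 421, 503 and 517 CPM in IgG-labelled libraries (log2 -2.60). The Kunitz-type protease inhibitor spint2.L had 45.6, 51.0, 53.0 and 50.6 CPM in hnRNPab-labelled and 305, 293, 299 and 366 CPM in IgG-labelled libraries (log2 -2.66). In each of the 3 genes every hnRNPab-labelled value lay far below the lowest IgG-labelled one, which their choice as large falls favours.

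Of the nuclear regulators, hic2.L, a BTB zinc finger repressor, had the most counts of the 15, with 192, 256, 252 and 216 CPM in hnRNPab-labelled and 895, 1270.1, 1430.3 and 1208 CPM in IgG-labelled libraries (log2 -2.38, edgeR adjusted p = 2.51e-27). The zinc finger genes znf462.L (log2 -2.58), znf462.S (-2.56) and znf407.S (-2.40) were also lower, as were hmg20b.S (-2.37), which encodes a subunit of a histone demethylase complex, and the Krüppel-like factor klf9.L (-2.29). Both copies of znf462 fell by nearly the same ratio although their counts differed, at 80.3 ± 21.6 CPM in hnRNPab-labelled and 483 ± 146 CPM in IgG-labelled libraries for znf462.L, and 2.09 ± 0.317 CPM in hnRNPab-labelled and 12.3 ± 2.82 CPM in IgG-labelled libraries for znf462.S (mean ± SD, n = 4 each). Log2 fold changes were -2.38 for alg10.L, a glucosyltransferase that completes the glycan precursor in the ER, -2.58 for fam168b.S, -2.50 for fsd1l.L and -2.43 for cobll1.L. The 15 falls were all listed in the authors' deposited hnRNPab table alone, with edgeR adjusted p-values of at most 1.15e-16 (znf462.S).

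**Figure D2:**
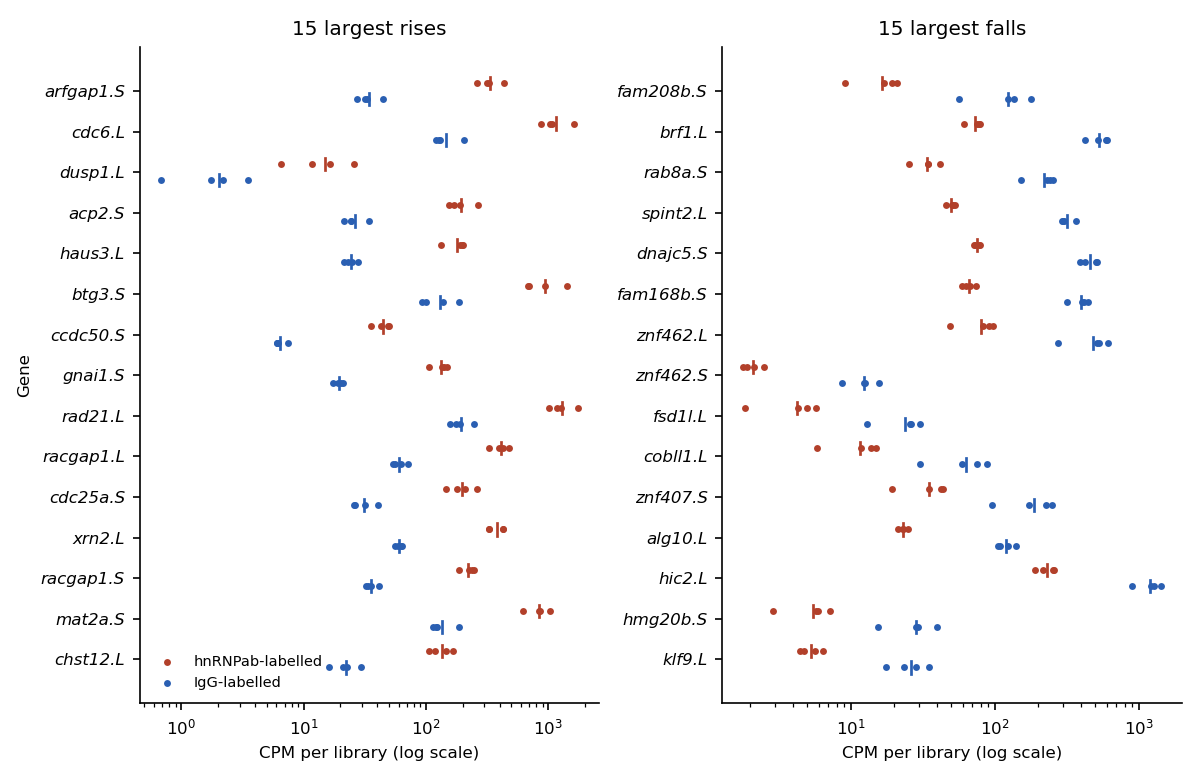
CPM per library (log axis) for the 15 largest rises (left) and 15 largest falls (right) among named genes with a mean of at least 5 CPM and one sign in 4 of 4 replicate numbers, with the hnRNPab-labelled libraries drawn above the IgG-labelled ones, a point for each of 4 libraries and a bar at the mean. In all 30 genes the values of the labels do not overlap, which the choice of the largest differences favours (31.2% of all tested genes do not overlap). Absolute log2 fold changes are 2.602 to 3.28 for the rises and 2.29 to 2.87 for the falls. Placeholder names were left out of the choice.

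Among genes with no name, the 2 largest rises and 2 largest falls at a mean of at least 5 CPM were also large. The identifier gene10064 stood at 82.1, 65.0, 345 and 326 CPM in hnRNPab-labelled libraries, against 12.1, 8.73, 70.4 and 59.6 CPM in IgG-labelled libraries. In both labels numbers 3 and 4 were several times numbers 1 and 2, so that the IgG-labelled value of number 3 exceeded the lowest hnRNPab-labelled one, while the log2 differences by number were 2.75, 2.88, 2.29 and 2.45 (fitted 2.54, edgeR adjusted p = 7.31e-26). gene48253 was at log2 2.48, gene34486 at -2.89 and gene11159 at -3.37. The last had 1.91, 6.24, 4.46 and 3.61 CPM in hnRNPab-labelled and 16.6, 55.7, 48.2 and 47.3 CPM in IgG-labelled libraries, a larger fall than that of any of the 15 named genes.

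The vegetal and animal transcripts that have a name were higher in hnRNPab-labelled libraries. Vegetally localized mRNAs gather at the cortex of the yolky hemisphere and pattern the embryo's germ layers and germ line. The vegetal list had 6 named and tested members from 4 genes, with .L and .S copies counted separately. All 6 were higher and 0 lower, with a median log2 fold change of 1.24, against 0.30 over named genes and -0.02 over all tested genes. Each is in the authors' deposited Staufen table, and the list holds 24 genes in the reference gene table, so most members had no name to be found by.

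wnt11b.L encodes the maternal Wnt ligand whose mRNA reaches the vegetal cortex early in oogenesis. Its level was 235, 175, 167 and 186 CPM in hnRNPab-labelled libraries and 87.2, 66.0, 55.9 and 56.4 CPM in IgG-labelled libraries, with no overlap (2.89-fold, log2 SE 0.0568, edgeR adjusted p = 2.39e-22). dand5.L, which encodes the secreted nodal and BMP antagonist Coco, had 931, 668, 824 and 736 CPM in hnRNPab-labelled and 285, 217, 252 and 211 CPM in IgG-labelled libraries (3.27-fold). For bicc1.S, the RNA-binding protein Bicaudal-C that represses maternal mRNAs, the values were 177, 199, 185 and 199.8 CPM in hnRNPab-labelled and 78.6, 83.6, 79.3 and 71.6 CPM in IgG-labelled libraries (2.43-fold). The highest IgG-labelled value of each gene lay below its lowest hnRNPab-labelled value, which their choice as the largest rises of the list favours.

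The other members were vegt.S, a T-box activator of endoderm, at 243 ± 19.5 CPM in hnRNPab-labelled and 107 ± 17.7 CPM in IgG-labelled libraries (mean ± SD, n = 4 each, 2.30-fold), dand5.S at 2.04-fold and bicc1.L at 1.52-fold. The log2 differences of vegt.S were 0.96, 1.04, 1.29 and 1.51 by replicate number. bicc1.L showed the smallest differences of the list, at 0.51, 0.54, 0.75 and 0.63. Of germ plasm and germ cell factors 2 were named, of which mael.L, a piRNA pathway protein, was higher (log2 0.82) with overlapping CPM, and hook2.L, matched by its name only, was at -0.06 and not called.

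The animal list, mRNAs that are richer in the pigmented hemisphere, had 13 named members from 7 genes, with .L and .S copies counted separately. These 13 were likewise all higher, with a median of 1.72. They were listed in the authors' deposited Staufen table. sox3.S, an HMG-box transcription factor that holds back nodal signalling, had 857, 452, 719 and 637 CPM in hnRNPab-labelled and 158, 94.2, 119 and 101 CPM in IgG-labelled libraries (5.63-fold, log2 SE 0.0612, edgeR adjusted p = 5.18e-27). ets2.L, an ETS factor, had 267, 196, 229 and 226 CPM in hnRNPab-labelled and 50.3, 38.6, 40.0 and 31.9 CPM in IgG-labelled libraries (5.75-fold). The receptor gene fgfr1 moved alike in both copies, 4.87-fold for fgfr1.L and 4.87-fold for fgfr1.S. The least changed were tcf7l1.L (0.95 on the log2 scale) and tcf7l1.S (0.91), encoding the maternal Tcf3 repressor of Wnt targets. Log2 fold changes overlapped between the vegetal list (0.60 to 1.71) and the animal list (0.91 to 2.52), and no test of a difference between them was made.

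Cell cycle genes were higher in the main. Growing oocytes are held in prophase of the first meiotic division and store mRNAs for maturation and for the rapid cleavage cycles. Of 33 named members of the maturation and cell cycle list, 27 were higher, 5 lower and 1 not called (median log2 1.41), and 28 are in the authors' deposited Staufen table. Cyclins A, B and E were represented by both homeologs and all were higher: ccna2.S (4.68-fold) and ccna2.L (3.98-fold), ccna1.L (3.24-fold) and ccna1.S (2.95-fold), ccnb1.L (3.47-fold) and ccnb1.S (2.65-fold), ccne1.S (3.74-fold) and ccne1.L (3.33-fold).

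Inhibitors and subunits of the anaphase-promoting complex, the ubiquitin ligase that destroys cyclins, were higher as well. fbxo5.S, the inhibitor Emi1, had 137, 109, 136 and 143 CPM in hnRNPab-labelled and 28.1, 23.6, 25.8 and 28.3 CPM in IgG-labelled libraries (4.96-fold). fbxo43.L, encoding the inhibitor Emi2 that keeps eggs in metaphase, had 265, 288, 323 and 328 CPM in hnRNPab-labelled and 69.3, 61.9, 57.9 and 57.4 CPM in IgG-labelled libraries (4.89-fold). Both copies of the subunit gene anapc10 rose by more than 4-fold, and those of cdc27 by 1.83-fold (cdc27.S) and 1.66-fold (cdc27.L). Among the kinases, cdk2.L was higher by 2.55-fold and cdk4.L by 2.08-fold, and cdk6.L by 1.30-fold, with log2 differences by number of 0.58, -0.16, 1.25 and -0.04 that differ in sign.

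The 5 lower members were mos.L, e2f1.L, ccnd2.L and both copies of cdkn2d. mos.L encodes the kinase that starts the MAP kinase cascade of maturation and later keeps the egg arrested, and it had 441, 356, 364 and 371 CPM in hnRNPab-labelled libraries, against 819.6, 695, 747 and 789 CPM in IgG-labelled libraries. Every IgG-labelled value was above every hnRNPab-labelled one (log2 -0.998, SE 0.0516, edgeR adjusted p = 2.57e-18). e2f1.L, a transcription factor of S phase entry, had 44.2, 64.1, 44.9 and 46.9 CPM in hnRNPab-labelled and 148, 199, 162 and 171 CPM in IgG-labelled libraries (log2 -1.77). The Cdk inhibitor genes cdkn2d.L (-0.96) and cdkn2d.S (-0.61) and the D-type cyclin ccnd2.L (-0.68) fell less. The D-type cyclin ccnd1.S went the other way, at 0.91 on the log2 scale, and bub3.S, a spindle checkpoint gene, was at 0.08 and not called.

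**Figure D3:**
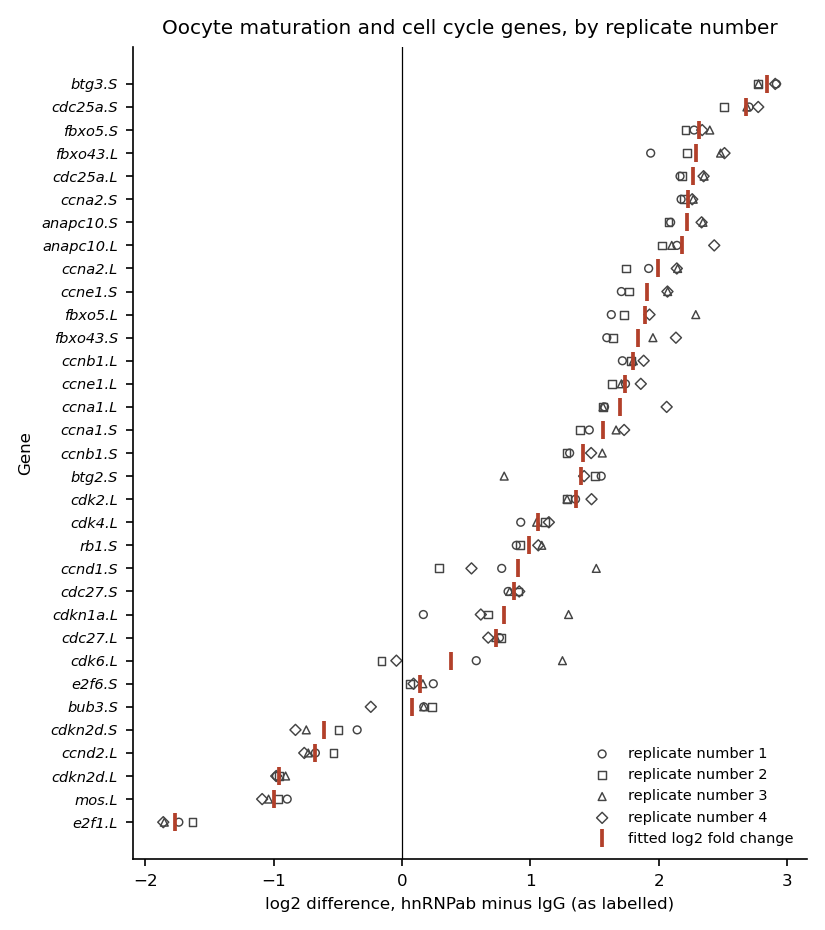
Log2 difference of hnRNPab-labelled minus IgG-labelled library within each replicate number (4 symbols) for the 33 named cell cycle genes, with the fitted log2 fold change as a red bar and a line at 0. Most genes lie right of 0 in all 4 numbers, 5 genes from cdkn2d.S to e2f1.L lie left of it in all 4, and the symbols of cdk6.L and bub3.S fall on both sides.

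The replication and repair list had 10 named members, 9 higher and 1 lower (median log2 1.86). It had 9 in the authors' deposited Staufen table, with which the direction goes. Beside both copies of cdc6 and rad21 it held dbf4.L, the regulator of the Cdc7 kinase that fires origins (4.31-fold), lig4.L, the ligase of end joining (4.50-fold), rad52.S (3.05-fold) and fancl.L (2.19-fold), both of recombinational repair, and pole3.L, a subunit of DNA polymerase epsilon (2.04-fold). rad18.L, a ubiquitin ligase of damage tolerance, was lower by a small margin with overlapping values, 21.7, 23.5, 31.5 and 23.1 CPM in hnRNPab-labelled and 30.0, 32.0, 35.3 and 31.1 CPM in IgG-labelled libraries (log2 -0.37, edgeR adjusted p = 1.92e-05, and 0.0685 without the replicate block).

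Of 26 centrosome, spindle and segregation genes 22 were higher and 4 lower (median log2 1.34), with 22 in the authors' deposited Staufen table. The gene rad21.L is counted on this list and on the replication list. Beside haus3.L and rad21.L the higher members included sgo1.L, the shugoshin that protects centromeric cohesion, at 4.47-fold, the condensin subunit ncapd2.S at 3.49-fold and the chromosome-arm kinesin kif22.S (gene10307) at 4.65-fold. The name kif22.S is carried by a pair of identifiers, which were both higher. The centriole assembly gene stil was higher in both copies (2.96-fold and 2.92-fold for .L and .S), and the Aurora B kinase aurkb.S was at 2.61-fold. The lower members were proteins of centrioles and cilia, cep41.S (log2 -2.02) and cep89.L (-1.56), the kinase nek7.S (-0.62) and the centromere protein cenpm.L (-0.29). cep41.S had 10.4, 15.6, 15.8 and 16.7 CPM in hnRNPab-labelled and 31.5, 64.8, 57.8 and 88.1 CPM in IgG-labelled libraries, with no overlap.

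mRNAs of the transport machinery itself were split. The list of transport particle and L-body proteins had 18 named members, 8 higher and 10 lower (median log2 -0.59), and the 8 are in the authors' deposited Staufen table and the 10 in their hnRNPab table. Among the higher ones larp1.S, which binds mRNAs of the translation machinery, had 294, 249.6, 260.5 and 283 CPM in hnRNPab-labelled and 104, 80.6, 74.7 and 79.1 CPM in IgG-labelled libraries (3.24-fold, log2 SE 0.0590, edgeR adjusted p = 4.4e-23). Its homeolog larp1.L was at 2.09-fold. caprin1.L (2.59-fold) and caprin1.S (2.03-fold), of RNA granules, were higher too, as was syncrip.L (1.62-fold).

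On the lower side were the Vg1 RNA-binding protein and kinesin-1, both with a known place in vegetal transport. igf2bp3.L, which encodes the first, had 85.8, 83.0, 95.1 and 86.5 CPM in hnRNPab-labelled libraries, against 177, 178, 229 and 206 CPM in IgG-labelled libraries (log2 -1.17, SE 0.0544, edgeR adjusted p = 1.48e-19). kif5b.L, which encodes a kinesin-1 heavy chain, had 40.7, 82.1, 61.6 and 64.0 CPM in hnRNPab-labelled and 104, 145, 158 and 216 CPM in IgG-labelled libraries (log2 -1.32). No hnRNPab-labelled value of either gene reached the IgG-labelled range. elavl1.S (-1.26) and elavl1.L (-1.06), the AU-rich element binding protein HuR, ddx6.L (-0.93) and ddx6.S (-0.56), the helicase of repressed mRNPs, and purb.L (-0.95) and larp4.L (-0.92) were also lower. These values are for the proteins' mRNAs and say nothing of the proteins in the particles.

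The Staufen and hnRNP genes with a name were all higher and all in the authors' deposited Staufen table. stau1.S (gene20) had 49.7, 60.5, 53.0 and 44.4 CPM in hnRNPab-labelled and 26.7, 28.6, 35.0 and 23.6 CPM in IgG-labelled libraries, without overlap (log2 0.87, edgeR adjusted p = 6.85e-13). hnrnpll.L, a splicing regulator, was higher by 4.34-fold and its homeolog hnrnpll.S by 1.49-fold. hnrnpul2.S (2.70-fold), hnrnpul1.S (2.09-fold) and hnrnpa0.L (1.99-fold) lay between them. The gene for hnRNPab itself has no name in the tables and was not analysed here. An immunoprecipitation recovers bound RNA, so the level of a target's own mRNA does not check a label.

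Among 29 named genes of mRNA storage, deadenylation and decapping, 12 were higher, 14 lower and 3 not called (median log2 -0.00087), 18 being in the authors' deposited Staufen table and 19 in their hnRNPab table, with some in both. The higher ones included the decapping cofactor dcp1b.L (2.66-fold), the cytoplasmic poly(A) polymerase papd4.S (2.59-fold), which lengthens tails at maturation, and the deadenylase subunits cnot8.S (2.06-fold) and pan3.S (2.01-fold). On the lower side tob2.L, which recruits deadenylases, had 67.2, 88.1, 102 and 92.6 CPM in hnRNPab-labelled and 147, 252, 256 and 253 CPM in IgG-labelled libraries (log2 -1.36, edgeR adjusted p = 1.26e-20).

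Copies of a gene in this group did not always move as one. pum2, which binds and represses mRNAs, was slightly higher in both copies (log2 0.39 for pum2.L and 0.17 for pum2.S). Of the argonaute genes, which bind small RNAs, ago1.S was lower at -0.98, while ago1.L was at 0.01 and not called. ago2.L was higher at 0.41 and ago4.L at 0.18. tob2.S was at 0.19, against the fall of tob2.L, and zfp36l2.S and zfp36l2.L, which bring AU-rich mRNAs to decay, were at -1.12 and -0.63, against 0.74 for the related zfp36l1.S.

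The hnRNP, splicing and nuclear RNA processing list had 17 higher (56.7%), 12 lower (40%) and 1 not called of 30 (median log2 0.61). Those shares were near the 52.9% and 40.4% of all named genes. rbm7.L, an adaptor of the nuclear exosome, had 172, 176, 241 and 189.8 CPM in hnRNPab-labelled and 37.9, 46.7, 47.2 and 53.5 CPM in IgG-labelled libraries (4.20-fold). The helicase ddx19b.L of mRNA export was higher by 2.78-fold. The exosome subunit exosc5.L (log2 -1.40), the splicing factors rbm4.L (-1.24) and rbfox2.L (-0.99) and the m6A reader ythdc2.L (-0.95) were lower, and the values of rbm4.L overlapped at a mean of 2.05 CPM in hnRNPab-labelled and 4.87 CPM in IgG-labelled libraries. A further m6A reader, ythdf2.S, was at 0.95, and ythdf3.L at -0.33.

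Nuclear transport genes numbered 10, with 7 higher and 3 lower. Importin alpha genes were higher, kpna1.L at 2.20-fold and kpna2.L at 1.81-fold, as were xpo6, the exportin of actin (the name xpo6.S is carried by a pair of identifiers, of which gene43328 was at 2.04-fold) and the nucleoporin nup35.L at 2.27-fold. The mRNA export receptor nxf1 fell in both copies, nxf1.L at log2 -1.05 and nxf1.S at -0.50, and nup37.L was at -1.19. Of 6 ribosome biogenesis and RNA polymerase III genes 2 were higher, 3 lower and 1 not called. The nucleolar methyltransferase fbl.S rose 2.66-fold and the TFIIIC subunit gtf3c2.L 2.87-fold, while nol9.L (-1.30 on the log2 scale), rrp15.S (-0.99) and brf1.L were lower, and brf2.L was at 0.02.

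Of the largest list, transcription factors, 52.1% were higher and 41.2% lower, near the 52.9% and 40.4% of all named genes. The list had 101 higher, 80 lower and 13 not called of 194 (median log2 0.19). Beside sox3.S, ets2.L and the znf genes above it held tbp, the TATA-binding protein, whose copies were both higher. tbp.S had 189, 145, 194 and 208 CPM in hnRNPab-labelled and 39.1, 32.2, 33.0 and 39.0 CPM in IgG-labelled libraries (5.12-fold), and tbp.L was higher by 3.35-fold. tbp is a common reference gene, as is the histone gene hist1h4a.L, which was higher by 1.70-fold with overlapping values.

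Of 56 chromatin modifiers and cofactors 33 were higher (58.9%), 20 lower (35.7%) and 3 not called (median log2 0.65). Over all named genes 52.9% were higher and 40.4% lower. suv39h1.L, a methyltransferase of heterochromatin, had 261, 171, 245 and 239 CPM in hnRNPab-labelled and 77.0, 48.5, 52.7 and 48.6 CPM in IgG-labelled libraries (4.07-fold). The TFIID subunit taf4.L (3.76-fold) and the acetyl-lysine reader brd3.S (3.69-fold) followed. Lower were setd1b.S, a histone H3 lysine methyltransferase (log2 -1.32), ino80d.S (gene12601), of the INO80 remodelling complex (-1.27), and brd1.S (-1.12), while its homeolog brd1.L was at 0.21. A second identifier named ino80d.S was at -0.12.

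In the Wnt and TGF-beta lists more genes were higher than lower, and most members are in the authors' deposited Staufen table. In the Wnt pathway, which sets the dorsal axis, 26 of 35 genes were higher, 6 lower and 3 not called (median log2 0.86), and 28 are in the Staufen table. The kinase genes csnk1d and gsk3a were higher in both copies. csnk1d.L had 167, 152, 182 and 155 CPM in hnRNPab-labelled and 39.1, 38.4, 35.9 and 45.5 CPM in IgG-labelled libraries (4.12-fold). Its homeolog csnk1d.S rose far less (log2 0.21), and gsk3a.L was higher by 3.30-fold and gsk3a.S by 2.62-fold. So were the co-receptors lrp6.L (2.46-fold) and lrp6.S (1.35-fold), the transducer dvl1.L (2.74-fold) and the receptor-removing ubiquitin ligase znrf3.L (2.95-fold).

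Of the Wnt genes that were lower, csnk1g3.S, a membrane-bound casein kinase, had 35.9, 56.5, 53.7 and 54.3 CPM in hnRNPab-labelled and 95.1, 162, 156 and 176 CPM in IgG-labelled libraries (log2 -1.54). The transcription factor tcf7.S was at -1.37 and the scaffold axin1.S at -0.56. The non-canonical ligand wnt5a.L was at -1.43, against 0.28 for wnt5a.S. For axin2 the copies also differed, with axin2.L higher at 0.97 and axin2.S at -0.07 and not called. rspo2.S, a secreted enhancer of Wnt signalling, was also among the largest rises of the list (3.07-fold) at a low level of 2.20 ± 0.397 CPM in hnRNPab-labelled and 0.723 ± 0.348 CPM in IgG-labelled libraries.

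Of 32 genes of TGF-beta, nodal and BMP signalling, 21 were higher, 9 lower and 2 not called (median log2 0.64). The activin receptor acvr2b.S had 412, 315, 361 and 344 CPM in hnRNPab-labelled and 72.9, 70.4, 64.3 and 63.9 CPM in IgG-labelled libraries (5.26-fold, edgeR adjusted p = 3.32e-27), and acvr2b.L was higher by 4.15-fold. foxh1.L, the maternal partner of nodal Smads, was higher by 3.59-fold, foxh1.S by 3.26-fold, and the oocyte growth factor gdf9.L by 2.74-fold. Lower members were the ubiquitin ligase smurf1.S, which marks Smads for destruction (log2 -1.27), smurf1.L (-0.87), the endosomal proteins zfyve16.L (-0.97) and zfyve16.S (-0.94), and the signal transducer smad3.L (-0.85).

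Receptor tyrosine kinase, Notch, Hedgehog and guidance genes were 30 higher, 20 lower and 4 not called of 54 (median log2 0.36). The shares, 55.6% higher and 37% lower, were near the 52.9% and 40.4% of all named genes. FGF receptors stood at the top, fgfr4.L with 371, 227, 263 and 271 CPM in hnRNPab-labelled and 75.0, 50.7, 50.0 and 48.4 CPM in IgG-labelled libraries (5.05-fold), together with both copies of fgfr1. Feedback inhibitors of these receptors differed by paralog, spry1.L at 2.10 and spry2.S at 1.35 on the log2 scale, against spry3.L at -1.58 and spry3.S at -1.90. The insulin-like growth factor receptor igf1r.S, through which IGF-1 can bring on oocyte maturation, had 104, 127, 119 and 108 CPM in hnRNPab-labelled and 295, 421, 448 and 354 CPM in IgG-labelled libraries (log2 -1.71). kit.S was at -1.56, smo, the Hedgehog transducer, at -1.05, and fgf14.S at -1.93.

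Small GTPases, G proteins and their regulators counted 46 higher, 33 lower and 2 not called of 81 (median log2 0.40). The shares, 56.8% higher and 40.7% lower, were near the 52.9% and 40.4% of all named genes. After arfgap1.S and gnai1.S, the Arf-like GTPase arl5c.L was next among the higher ones (5.36-fold). After rab8a.S, the lower ones were led by tbc1d15.S, a GTPase-activating protein for Rab7 (log2 -1.93), and arl10b.S (-1.92). Protein kinases had 37 higher (49.3%), 35 lower (46.7%) and 3 not called of 75 (median log2 0.12), beside 52.9% and 40.4% of all named genes. pim1.S (4.21-fold) and the focal adhesion kinase ptk2.L (3.60-fold) were higher, and pak3.S (log2 -1.78), pak3.L (-1.63) and the calmodulin-dependent kinase camk2g.L (-1.62) lower. For camk2g.L the libraries held 36.5, 37.9, 30.3 and 31.2 CPM with the hnRNPab label and 82.7, 113, 107 and 117 CPM with the IgG label, without overlap.

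Phosphatases were 27 higher, 20 lower and 3 not called of 50 (median log2 0.35). The shares, 54% higher and 40% lower, were near the 52.9% and 40.4% of all named genes. Within the family of small C-terminal domain phosphatases the paralogs parted. ctdspl2.L had 223, 159, 168 and 187 CPM in hnRNPab-labelled and 46.2, 32.2, 37.4 and 32.0 CPM in IgG-labelled libraries (5.004-fold). ctdspl.L had 63.5, 117, 122 and 118 CPM in hnRNPab-labelled and 292, 569.8, 546 and 615 CPM in IgG-labelled libraries (log2 -2.26). The dual-specificity phosphatases dusp1.L, dusp1.S (1.61) and dusp6.S (1.51) were higher and dusp7.L (-1.36) lower, as were ppm1e.S (-1.94) and ptpn3.S (-1.80).

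Protein turnover genes were mixed. Of 100 ubiquitin ligases and deubiquitinases 58 were higher, 39 lower and 3 not called (median log2 0.41), near the 52.9% and 40.4% of all named genes. Rises of more than 2-fold numbered 14 and such falls 19, beside 18.2% and 13.2% of all named genes. usp25.L (4.33-fold) was the largest rise after the fbxo genes. usp36.S, a nucleolar deubiquitinase, had 29.7, 37.3, 37.7 and 36.6 CPM in hnRNPab-labelled and 108, 175, 163 and 212 CPM in IgG-labelled libraries (log2 -2.20), and the conjugating enzyme ube2q2.L (-1.75) and the ER ligase rnf103.L (-1.74) were lower too. Among 20 proteasome, chaperone and autophagy genes 12 were higher, 5 lower and 3 not called. dnaja3.L (2.95-fold), a mitochondrial co-chaperone, and dnajc14.L (2.39-fold) were higher, while psme3.S, the PA28 gamma activator of the nuclear proteasome, was at log2 -1.46.

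The ER list of translocation, folding and glycosylation split into 19 higher (51.4%) and 18 lower (48.6%) of 37, beside 52.9% and 40.4% of all named genes. pigc.L, of GPI anchor synthesis (5.35-fold), the mucin-type glycosyltransferase galnt11.S (4.75-fold) and the stress sensors ern2.S (4.19-fold) and eif2ak3.S (2.84-fold) were higher. sec62.L, a subunit of the translocation channel, had 7.07, 9.90, 7.94 and 8.71 CPM in hnRNPab-labelled and 18.8, 34.1, 30.4 and 41.3 CPM in IgG-labelled libraries (log2 -1.87), sec62.S was at -1.30 and tmtc2.L, a mannosyltransferase, at -1.49. Vesicle traffic had 36 higher (48.6%), 36 lower (48.6%) and 2 not called of 74 (median log2 -0.13). The lysosomal protease cathepsin B was higher in both copies, at 3.83-fold for ctsb.L and 3.53-fold for ctsb.S, and the adaptor subunit ap3d1.L (-1.88 on the log2 scale) and the sorting nexin snx13.S (-1.73) were lower.

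Lipid and phosphoinositide genes counted 22 higher (43.1%), 27 lower (52.9%) and 2 not called of 51 (median log2 -0.24), beside 52.9% and 40.4% of all named genes. Past 2-fold the list had 5 rises and 12 falls, beside 18.2% and 13.2% of all named genes. The largest fall was that of cept1.S, which makes phosphatidylcholine and phosphatidylethanolamine. It had 15.6, 18.6, 18.8 and 18.5 CPM in hnRNPab-labelled and 59.6, 84.2, 87.7 and 116 CPM in IgG-labelled libraries (log2 -2.26, SE 0.0757, edgeR adjusted p = 1.59e-23). The stearoyl-CoA desaturase scd.L had 45.8, 49.7, 38.4 and 59.9 CPM in hnRNPab-labelled and 157, 207, 140.0 and 298 CPM in IgG-labelled libraries (log2 -2.01). Its homeolog scd.S had the same log2 fold change to 2 decimals at a mean of 0.822 CPM in hnRNPab-labelled and 3.35 CPM in IgG-labelled libraries. The fatty acid elongase elovl1.S (-1.55), the acyl-CoA synthetase acsl4.S (-1.30) and sptlc1.L (-1.26), of sphingolipid synthesis, were lower as well.

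Phosphoinositide enzymes went both ways. pip5k1a.S, which makes phosphatidylinositol bisphosphate, was higher by 3.74-fold, the phospholipase plcb3.L by 3.27-fold and the 5-phosphatase inpp5b.L by 3.14-fold. The PI 3-kinase subunits pik3ca.S (log2 -0.94), pik3ca.L (-0.82) and pik3r2.L (-1.59) were lower.

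Membrane transporters were 63 higher (59.4%), 38 lower (35.8%) and 5 not called of 106 (median log2 0.42), beside 52.9% and 40.4% of all named genes. slc8b1.L, a mitochondrial sodium-calcium exchanger (4.50-fold), and slc16a1.S, a monocarboxylate transporter (3.75-fold), were higher. The phosphate transporter slc20a2.S had 15.5, 21.9, 19.9 and 20.8 CPM in hnRNPab-labelled and 61.8, 105, 71.9 and 90.6 CPM in IgG-labelled libraries (log2 -2.06), and the iron exporter slc40a1.S was at -2.02. Of 24 channel and gap junction genes 10 were higher, 13 lower and 1 not called (median log2 -0.40). The higher channels included the lysosomal cation channel mcoln1.L (3.65-fold), the potassium channel kcnk5.S (3.10-fold) and trpm7.L (3.04-fold). Lower were ano10.L (log2 -1.86), the calcium channel subunit cacnb4.L (-1.57) and mcoln3.S (-1.38), a paralog of mcoln1.

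The cytoskeleton and motor list had 17 higher (51.5%), 12 lower (36.4%) and 4 not called of 33 (median log2 0.24), beside 52.9% and 40.4% of all named genes. Microtubule end proteins lay at both ends of it. mapre3.L, of the EB family, had 183, 112, 128 and 119.6 CPM in hnRNPab-labelled and 28.3, 22.5, 20.3 and 23.5 CPM in IgG-labelled libraries (5.67-fold). clip1.S, a plus-end linker, had 27.9, 49.0, 39.3 and 46.2 CPM in hnRNPab-labelled and 92.4, 164, 146 and 183 CPM in IgG-labelled libraries (log2 -1.84). The nuclear lamina gene lmnb1 was higher in both copies (4.98-fold for .L and 3.75-fold for .S).

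Motor subunits and adaptors went both ways. dync1li1.L, a dynein light intermediate chain, had 18.2, 21.1, 20.4 and 16.8 CPM in hnRNPab-labelled and 48.9, 61.5, 62.3 and 60.7 CPM in IgG-labelled libraries (log2 -1.61, edgeR adjusted p = 3.42e-20), and the dynein light chain dynlt3.L (-1.01) and dynactin subunit dctn6.L (-1.003) were lower with kif5b.L. The kinesin light chain klc1.L was at 0.77 and the dynein adaptors bicd1.L and bicd1.S at 0.36 and 0.24. Mitotic kinesins kif18a.L (1.28) and kif18b.L (1.68) were higher.

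Some lists had few names or none. Of translation factors 3 were named and higher, the helicase eif4a1.L (1.87-fold), the cap-binding protein eif4e3.S (1.47-fold) and eif2ak3.S, which is a stress kinase and not a factor. rps26.L was the single ribosomal protein gene with a name, of 134 in the reference gene table, and was lower (log2 -0.68). Nuclear-encoded respiratory chain genes, mitochondrially encoded transcripts and egg coat glycoproteins had 0 named members. In all, 1133 tested genes lay on at least 1 of the 36 lists, 629 of them higher and 447 lower. These counts are read beside the 52.9% higher and 40.4% lower of all named genes.

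Oocyte markers were present, with mos.L at 383 ± 39.2 CPM and gdf9.L at 309 ± 49.3 CPM in hnRNPab-labelled libraries, against 763 ± 54.1 CPM and 113 ± 12.6 CPM in IgG-labelled libraries (mean ± SD, n = 4 each). Markers of cells that could adhere to oocytes had 4 names. The follicle list had hsd17b7.S (log2 -0.30) and foxo1.L (-0.39), the stromal list mmp16.S (-0.38) and the blood list slc4a1.L, the band 3 anion exchanger, which was higher by 4.35-fold. The first 3 had overlapping values, were not called without the replicate block (edgeR adjusted p = 0.175, 0.0799 and 0.303) and are not specific to those cells, and the defining markers of these cell types had no name. The part of other cells in the differences was not tested.

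**Figure D4:**
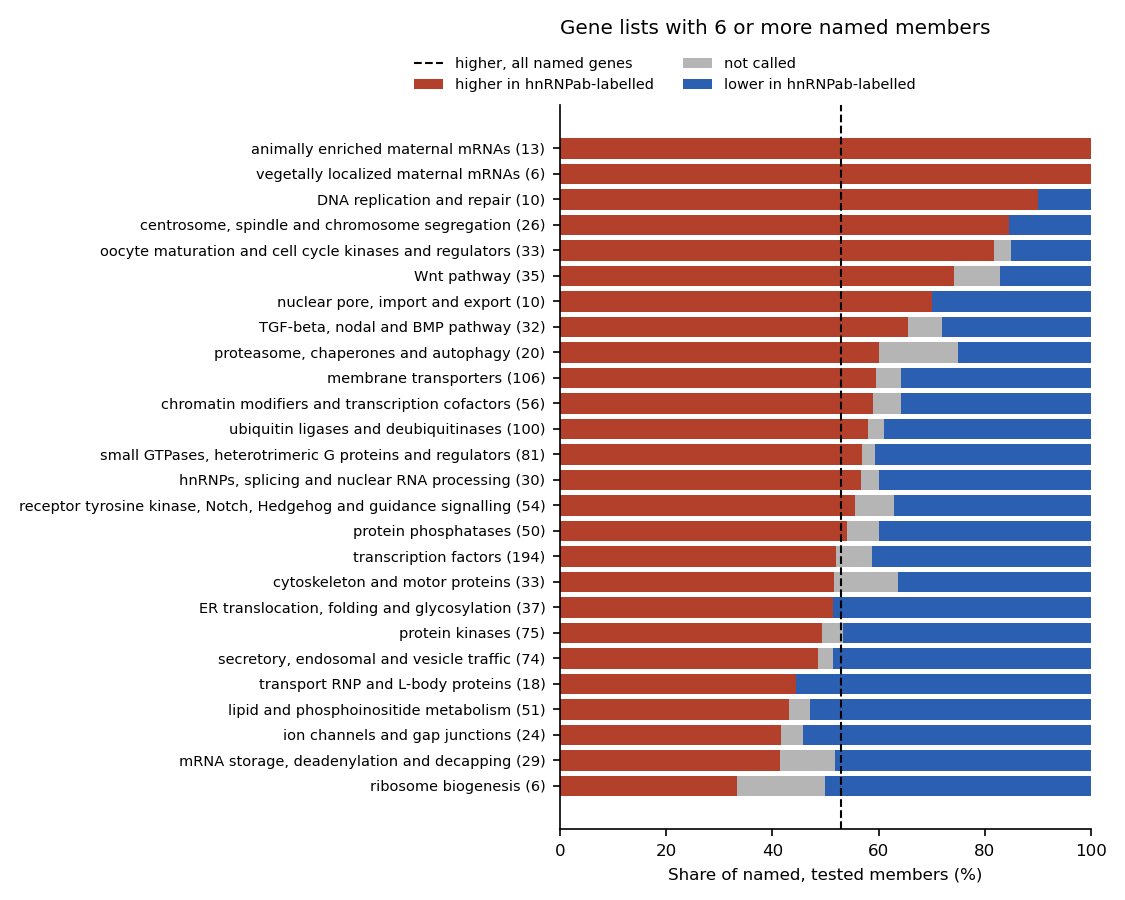
Share of the named, tested members of each gene list that were higher in hnRNPab-labelled libraries (left, red), not called (grey) or lower (right, blue), with the number of members in brackets and a dashed line at the 52.9% of all named genes that were higher. Animal, vegetal, replication, spindle and cell cycle lists lie right of the line, and transport particle, lipid, channel and mRNA storage lists left of it.

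The duplicated genome offers a comparison within a gene. Homeologs, the .L and .S copies kept since the genome was duplicated, are similar in their coding sequence. Both copies were named and tested for 491 genes, which needs both to have been selected by the authors. In 220 pairs both copies were higher in hnRNPab-labelled libraries, in 144 both were lower, in 71 the copies were called in opposite directions and in 56 one or both were not called. Across the 491 pairs the log2 fold changes of the copies had r = 0.75 (a description over genes, which share libraries), with a median absolute difference of 0.49.

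The ratio of the copies was tested against label in a joint edgeR fit over the pairs. It differed in 386 of 491 pairs (78.6%), with the change of the .L copy above that of the .S copy in 185 and below it in 201. All 71 opposite pairs were among them, which opposite calls of the copies in the same libraries favour. In 52 pairs the authors' deposited tables list the copies in different single tables, and in 316 in the same single table. Reads of similar copies can be assigned to the wrong one, which makes differences between homeologs uncertain.

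The largest difference of this kind was that of sbds, a ribosome maturation factor. sbds.L had 20.6, 38.2, 35.9 and 34.5 CPM in hnRNPab-labelled and 59.4, 119, 103 and 140.0 CPM in IgG-labelled libraries (log2 -1.69). sbds.S had 28.5, 32.2, 36.9 and 37.1 CPM in hnRNPab-labelled and 13.2, 17.1, 13.7 and 15.2 CPM in IgG-labelled libraries (log2 1.18). In counts, which are not corrected for length, the copies were about equal in hnRNPab-labelled libraries except number 1, while .L had far more in IgG-labelled libraries (difference of log2 fold changes, L minus S, -2.87, SE 0.117, edgeR adjusted p = 2.94e-14 over the 491 pairs).

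slbp, which binds the stem-loop at the end of histone mRNAs, ran the other way. slbp.L had 1712, 1338, 1632 and 1425 CPM in hnRNPab-labelled and 598, 427, 514 and 539 CPM in IgG-labelled libraries. slbp.S had 288, 362, 392 and 305 CPM in hnRNPab-labelled and 607, 832, 924 and 786 CPM in IgG-labelled libraries. The labels did not overlap for either copy, and the .L copy had more counts than .S in every hnRNPab-labelled library and fewer in every IgG-labelled library (L minus S 2.78, SE 0.0617, edgeR adjusted p = 1.29e-17).

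The other pairs named by the rule were fam83d, a spindle protein, with log2 fold changes of 1.88 for .L and -0.66 for .S (difference 2.55), tpst2, a tyrosine sulfotransferase, with 2.11 and -0.26 (difference 2.37), and slain2, a microtubule growth factor, with 1.46 and -0.86 (difference 2.32). The edgeR adjusted p-values of these ratio differences were at most 1.21e-13, that of tpst2. The .S copy of tpst2 had overlapping values, 25.0, 34.2, 29.6 and 31.5 CPM in hnRNPab-labelled and 25.5, 40.6, 35.2 and 43.5 CPM in IgG-labelled libraries, and its edgeR adjusted p of 0.00240 became 0.367 without the block and 0.0594 without replicate number 4. Smaller changes lay in many of the pairs, as 247 of the 491 differed by less than 0.5 on the log2 scale.

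**Figure D5:**
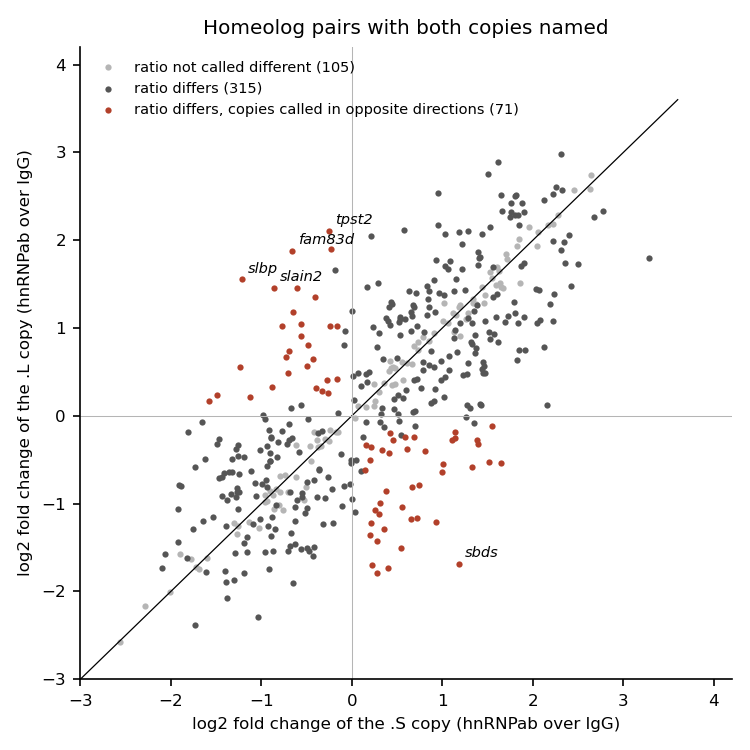
Log2 fold change (hnRNPab-labelled over IgG-labelled) of the .L copy (vertical axis) against the .S copy (horizontal axis) for 491 homeolog pairs, with a line of equal change. Red points are the 71 pairs called in opposite directions, dark grey the 315 others whose ratio differed and light grey the 105 whose ratio was not called different.

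Staufen-labelled libraries are set against the same IgG-labelled libraries here, which are a control by their title only. The genes below were chosen for their difference between hnRNPab-labelled and IgG-labelled libraries, so their Staufen-labelled values are given only as a description. arfgap1.S had 52.6, 39.8, 35.9 and 37.1 CPM in Staufen-labelled libraries, close to its IgG-labelled values, and a log2 fold change over IgG of 0.27, against 3.28 for hnRNPab over IgG. brf1.L had 158, 209.6, 199.7 and 199.7 CPM in Staufen-labelled libraries and log2 fold changes of -1.47 for Staufen and -2.85 for hnRNPab over IgG. Of genes past 2-fold in hnRNPab-labelled libraries, the medians over IgG in Staufen-labelled libraries were 0.15 for the 712 named higher genes, 0.19 for the 82 without a name, -0.50 for the 517 named lower genes and -0.45 for the 410 without a name.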

How the data were processed

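The authors deposited whole-number counts per gene for each library and a table of enriched genes each for Staufen and hnRNPab. Per the submitters' processing notes, STAR 2.6.1b, HTSeq 0.9.1 and edgeR were used. Genome build, annotation and strand were not given in the sources used here, so genes are identified by the files' gene numbers, without positions, and antisense or overlapping genes cannot be told apart. Per the file headers, the authors' tables hold log2 fold changes, log2 CPM, a test score (F), a p-value with its adjusted value, and they pair gene numbers with names. Of 3904 named tested genes, 77% matched a symbol of the RefSeq gene table of assembly Xenopus_laevis_v10.1, which served only to count list sizes.

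Libraries were grouped by title. Counts of all 12 libraries were fitted with edgeR 4.0.16 (R 4.3.3, limma 3.58.1) by label and replicate number (6 residual degrees of freedom), with TMM normalization and the default filterByExpr filter (20803 of 51061 genes). The quasi-likelihood F test, or glmTreat against 2-fold, was applied to hnRNPab minus IgG with Benjamini-Hochberg adjustment at 0.05. An SE is the absolute log2 fold change divided by the square root of F from the quasi-likelihood test. The numbers pair the libraries because every same-numbered pair deviated together (r 0.817 to 0.852). CPM of genes are counts per 1000000 of the TMM-scaled gene counts of a library. Homeolog ratios were fitted on stacked counts of both copies. Reads shared between genes (0.521% to 0.791%) and without a single alignment (24.5% to 27.7%) stayed out. The steps were tested on counts simulated from the fitted model, which cannot show whether that model suits these libraries.

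Members and gene lists were chosen with earlier results of these data known. The genes named are the 15 largest rises and falls with a mean of at least 5 CPM and one sign in 4 of 4 numbers, up to 3 called members of each list per direction, Staufen and hnRNP genes, 5 homeolog pairs and 2 unnamed genes per direction, apart from a few genes that are not reported here. Placeholder names were left out of the largest rises and falls. Further list members were chosen for their function after their values were seen. Alternatives changed the block, libraries, normalization, filter and tool (DESeq2 1.42.0).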

Additional observations from a re-analysis of the deposited data

Results flagged for a closer look

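In 26 of 364 groups of 4 libraries the highest or lowest library stood apart from the other 3 by Dixon's criterion. Chance meets this criterion in about 1 of 20 groups. Each group held the values under 1 label of a gene named here or of a library measure, such as gene counts. All 26 were groups of genes. The library hnRNPab 1 stood low for cept1.S at 15.6 CPM, csnk1g3.S at 35.9 CPM, ctdspl.L at 63.5 CPM, snx13.S at 43.0 CPM and usp36.S at 29.7 CPM. The library hnRNPab 2 stood low for fgfr1.L at 276 CPM, haus3.L at 134 CPM and slc16a1.S at 100.2 CPM, and high for cdkn2d.L at 32.0 CPM and e2f1.L at 64.1 CPM.

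The library IgG 1 held 13 of the 26. It stood high for cdc6.L at 204 CPM, cdc6.S at 219 CPM, eif4a1.L at 275 CPM, fgfr4.L at 75.0 CPM, mat2a.S at 185 CPM, plcb3.L at 126 CPM and suv39h1.L at 77.0 CPM. It stood low for brd1.S at 129 CPM, dync1li1.L at 48.9 CPM, ino80d.S at 411 CPM, smurf1.S at 288 CPM, tob2.L at 147 CPM and ube2q2.L at 209 CPM. In the genes of the first kind hnRNPab-labelled libraries exceeded IgG-labelled ones, and in those of the second kind they lay below them. IgG 1 was thus the IgG-labelled library nearest to the hnRNPab-labelled values in all 13. Except for dync1li1.L, hnRNPab 1 was also the highest or lowest of its label in these genes, on the same side as IgG 1. The side of the shift was then shared by both libraries of replicate number 1 in those genes, but its size was not in every gene. For ube2q2.L the log2 differences by replicate number were -1.53, -1.75, -1.89 and -1.80. Those of cdc6.L, at 2.98, 2.78, 3.09 and 3.06, had no such gap at number 1. Without IgG 1, 6451 genes were higher and 6474 lower in hnRNPab-labelled libraries, against 6505 and 6937 with it. Genes share libraries, so the 13 are not independent of each other.

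The library IgG 2 stood high for slain2.S at 161 CPM, and IgG 4 for ccdc50.S at 7.47 CPM and spint2.L at 366 CPM. The values of the labels did not overlap for any gene of these 26 groups. Over all tested genes this held for 31.2%. The genes were mostly named for large differences, which favours it.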

How the results depend on the processing

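With no replicate block, 3388 genes were higher and 3617 lower, and 422 and 259 differed by more than 2-fold. The homeolog count was then 288, and members on lists 537 higher and 376 lower. The unpaired exact permutation test of the share of reads outside exons kept the difference of -6.43 percentage points and gave p = 0.0286, the smallest that 4 against 4 allow. With the block, the counts of higher and lower genes were 6603 and 6491 over the 8 libraries alone, 6570 and 6893 with RLE size factors, 5712 and 7497 with library totals, 6913 and 6532 without a filter, 6381 and 6751 with at least 1 CPM in 4 libraries, and 6128 and 6391 with DESeq2. No gene called in the main fit was called in the opposite direction in any of these fits or with libraries left out. Leaving out a replicate number or a library gave 5979 to 6451 higher genes, 6433 to 6763 lower, 730 to 825 and 765 to 945 over 2-fold, and 614 to 633 higher and 438 to 447 lower list members. Leaving out a replicate number gave 370 to 380 homeolog pairs and -7.14 to -5.98 percentage points outside exons. Genes and pairs followed singly were mainly chosen among those called in the main fit, by size of change, which favours keeping a call. Of 3393 values of 182 such genes and pairs under these alternatives 3386 kept direction and call and 0 were reversed. The other 7 lost their call, 5 without the block (hsd17b7.S, rad18.L, mmp16.S, foxo1.L and tpst2.S), mmp16.S with DESeq2 (adjusted p = 0.058) and tpst2.S without replicate number 4. The cause was not tested. Of 1254 counts of members by list, 4 moved by more than 1.5 times, each a count that became 0. The share of genes called was lowest at the lowest counts, and the part of depth in this was not tested. Homeolog counts without each single library were not run.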
